A study of Mus musculus with 16 samples.

Results

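The members described here are the heat shock proteins, J proteins, BAG proteins and cytosolic chaperonin subunits measured in mouse CD4 T cells. They were chosen by gene symbol alone, as every annotated gene whose symbol starts with Hsp, Dnaj or Bag or runs from Cct2 to Cct8. The array annotation held 80 such genes on 107 probes, of 16593 annotated genes. A gene was kept where a probe rose above the array background on at least 2 arrays, and its brightest such probe stands for it. This left 62 of the 80 genes, of 9800 genes kept on the whole array. The 18 genes left out were Cct6b, Cct8l1, Dnajb3, Dnajb5, Dnajb7, Dnajc1, Dnajc28, Dnajc5b, Dnajc5g, Dnajc9, Hspa12b, Hspa14, Hspa1l, Hspb2, Hspb3, Hspb7, Hspb8 and Hspg2. Of these, Cct6b, Dnajc5g and Hspg2 were above background on 1 array and the other 15 on 0, and Hspg2 encodes perlecan, a matrix proteoglycan that shares only the letters of the symbol. Just inside the limit were Dnajc11 and Hspa13, each above background on 3 arrays, then Hspa1a on 6, Hspb1 on 7 and Dnajc6 on 11. Of the 62 members, 55 were above background on all 16 arrays. The annotation held no probe for Hspa1b or Hsp90ab1, which were not analysed here.

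The study set wild-type (WT) against Erk2-deficient CD4 T cells of the C57/BL6 strain on Illumina bead arrays, with 8 conditions and 1 array of each genotype in each, 16 arrays in all. The conditions were day 0, 3 hours (hr) in Th0 or iTreg culture, and day 1 in Th0, Th1 or iTreg culture or in Th0 culture with TGF for 1 or 3 hr. Erk2 is a kinase of the mitogen-activated protein kinase cascade that runs below the T cell receptor; Th0 denotes activation without a polarising cytokine, Th1 an interferon-gamma lineage and iTreg induced regulatory T cells. The labels do not give the stimulus, the ages or number of mice, the means of Erk2 deletion, or whether cultures came from separate animals, so the p-values measure the spread between these arrays only.

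Chaperones bind unfolded protein and help it fold, refold or be degraded. HSP70 proteins bind and release their clients through a cycle of ATP hydrolysis, which J proteins (Dnaj) start and nucleotide exchange factors such as the BAG proteins and the HSP110 group (Hsph1, Hspa4, Hspa4l) end. The chaperonin CCT folds actin and tubulin in the cytosol, and Hspd1 with its lid Hspe1 does similar work in mitochondria. A first set of chaperone genes, led by Hspa1a, is switched on within minutes to hours of heat or other proteotoxic stress by heat shock factor, while others are made at a high level in any growing cell. T cells taken from the animal are small and quiescent, and activation starts a large increase in protein synthesis and cell size.

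The measurements had limits that touch every value below. Median raw intensity ran from 62.6 to 71.1 and 12172 to 12636 probes were above background per array. The T cell markers Cd3e, Cd3d, Cd4, Cd5 and Thy1 were above background on all 16 arrays. Among markers of other cells, so were Cd8b1, Nkg7, Klrd1, Lyz1 and S100a8. The day 0 pair ran against its labels on genes that separated the genotypes elsewhere: the Erk2-deficient minus WT difference of Gdpd3 was -3.48 on the log2 scale at day 0 and 2.74 and 2.68 in the 3 hr cultures, and that of Hba-a1 was 3.20 at day 0 and -3.45 and -3.43 at 3 hr. Time comparisons average both genotypes, and exchanging the day 0 labels left the 3 hr count at 40 and gave 40 in place of 38 at day 1. The library labelled Erk2-deficient day 1 iTreg lay apart from the other day 1 arrays, with a score of 17.1 on the first principal component of all probes against 29.98 to 35.1. In bulk RNA, fewer cells of a type and less RNA per cell cannot be told apart. Levels are log2 intensities after background correction and quantile normalization. Intensities of different probes do not rank transcripts, so levels are compared between arrays and not between genes.

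Chaperone genes moved in opposite directions over the first day. By 3 hr, 28 of the 62 members were higher and 12 lower than at day 0, a call made for 49.3% of all 14501 probes, 24.6% higher and 24.8% lower (limma, Benjamini-Hochberg adjusted p under 0.05 over all probes, 7 residual degrees of freedom). At day 1 in Th0 culture, 26 were higher and 12 lower than at day 0, where 60% of all probes were called, 30.5% higher and 29.5% lower. From 3 hr to day 1 in Th0 culture 24 rose and 23 fell, against 53.9% of all probes, and in iTreg culture 17 rose and 22 fell, against 51.7%. The day 0, 3 hr and day 1 Th0 arrays shared a chip and the other day 1 arrays lay on a second, so chip and time cannot be told apart in the iTreg comparison. As a share, 61.3% of the members were called at day 1 Th0 against day 0, near the 60% of all probes. The shares were 64.5% at 3 hr against day 0 and 75.8% and 62.9% between 3 hr and day 1 in Th0 and iTreg culture, above their backgrounds, with the members read on the brightest probe of each gene and the background on all kept probes. The median difference between day 1 Th0 and day 0 was 0.07 over the members, so the group had no common direction. What differed was which members went which way, and each is placed by time below. A member was called highest at day 0 where its day 0 mean was above all 7 other condition means and it fell at 3 hr or day 1. These 11 members, the 26 higher at day 1, 3 lower at day 1 and 22 with no call between day 0 and day 1 are a description drawn from the values themselves. The 26 were the 7 CCT subunits, Hspd1, Hspe1, Hspa4, Hspa9, Hsp90aa1, Hsp90b1, Hspbp1, Bag1, Bag2, Bag4, Bag5, Dnaja3, Dnajc2, Dnajc10, Dnajc15, Dnajc18, Dnajc19, Dnajc24 and Dnajc27. Those with no call included Hspa8, Hspa5, Hsph1, Hspa4l, Hspb1, Hspb6 and Dnaja1, and also Bag6, Dnaja2, Dnajb6, Dnajb8, Dnajb13, Dnajc3, Dnajc8, Dnajc11, Dnajc12, Dnajc14, Dnajc16, Dnajc17, Dnajc30, Hspa12a and Hspa13. Over all 22 the difference between day 1 Th0 and day 0 ran from -0.35 to 0.19.

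**Figure D1:**
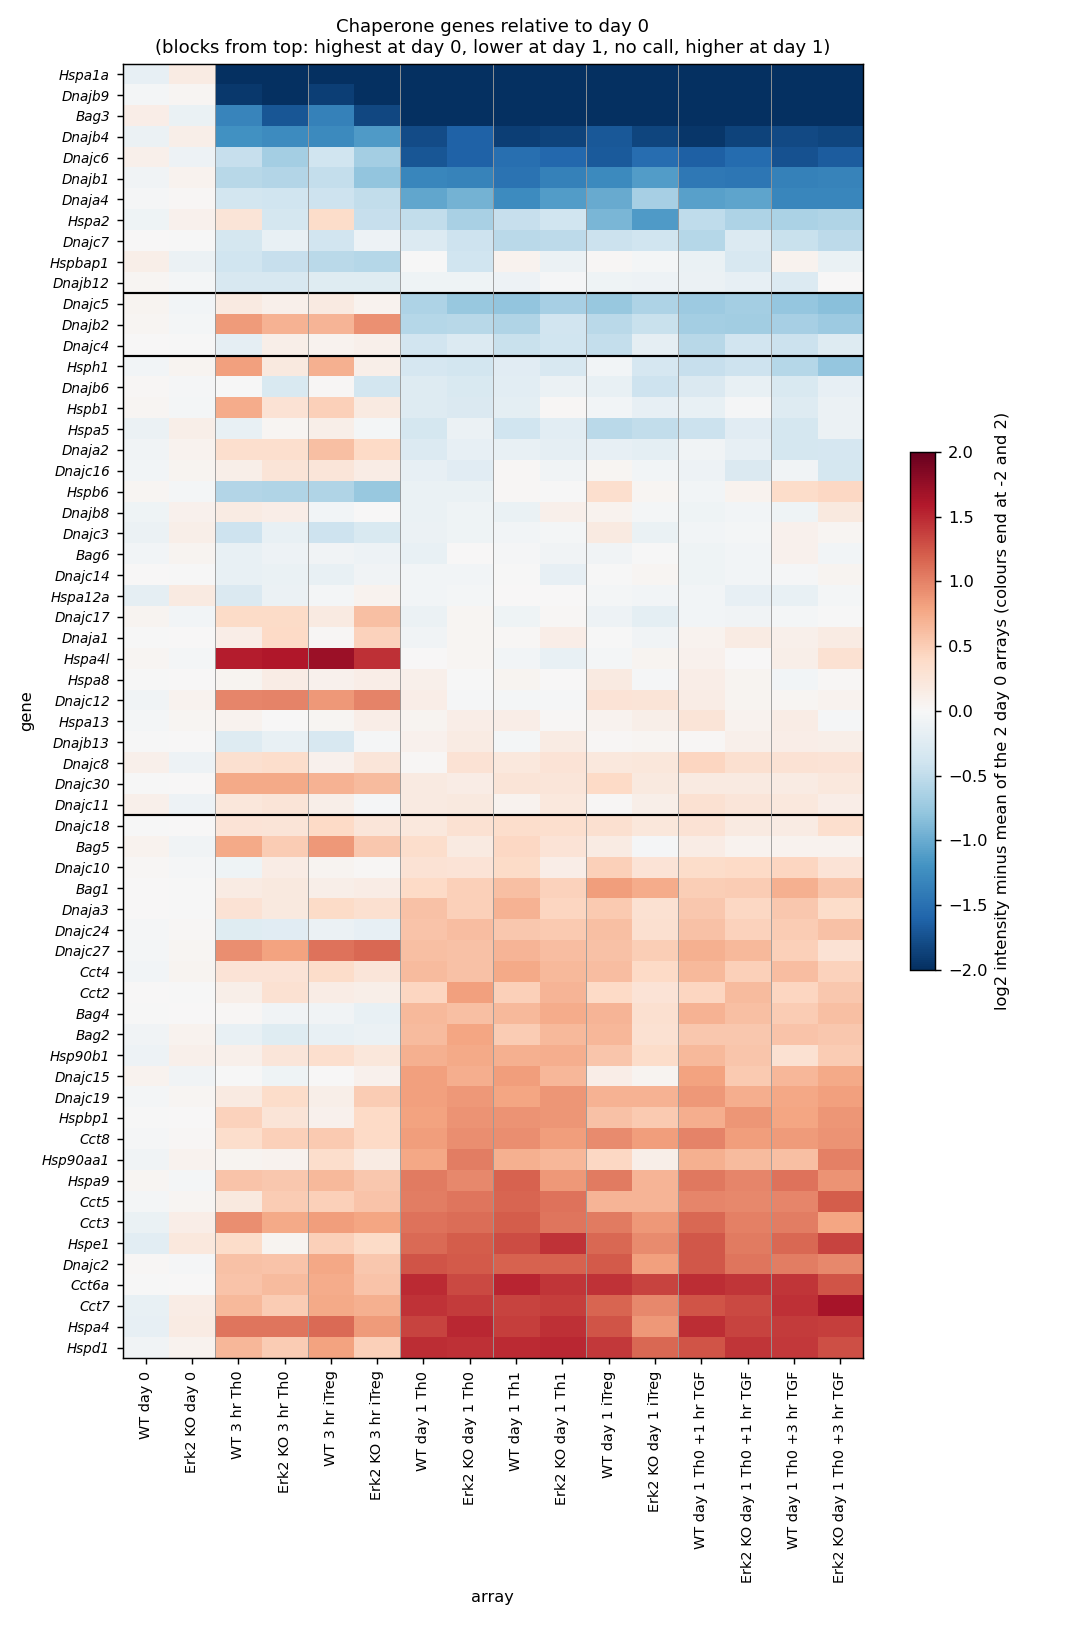
Heat map of the 62 chaperone genes (rows) on the 16 arrays (columns), as log2 intensity minus the mean of the 2 day 0 arrays; red is above and blue below day 0, and colours end at -2 and 2. The 11 members in the top block are highest at day 0, the 26 in the bottom block are higher at day 1 Th0 than at day 0, and thin vertical lines part the conditions.

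Among the members highest at day 0, Hspa1a moved most. It encodes the stress-inducible cytosolic HSP70. Its log2 intensity was 12.32 in WT and 12.66 in Erk2-deficient cells at day 0. At 3 hr it was 9.93 and 8.79 in Th0 and 9.998 and 8.85 in iTreg culture, again WT first. On the 10 day 1 arrays it ran from 5.80 to 6.05, never above background. Every day 0 array thus lay above every 3 hr array, and every 3 hr array above every day 1 array. The fall from day 0 to 3 hr was -3.10 on the log2 scale (standard error, SE, 0.244; limma adjusted p = 4.4e-08), which is 8.55-fold. Because day 1 has only a bound, the fall from day 0 to day 1 Th0 was at least 72.9-fold, and from 3 hr to day 1 at least 8.34-fold in Th0 and at least 8.65-fold in iTreg culture (limma adjusted p = 2.89e-11, 4.89e-08 and 5.31e-08). Each bound sets the bright arrays' mean against the lowest signal still above background. Hspa1b is a near-identical copy, and this probe may read both.

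The promoter of Hspa1a is shown because heat shock factor binds inverted repeats of GAA, and this gene's fall was the largest among the members. The 150 bases before its start site, chr17:34972157-34972306 on the minus strand of GRCm38.p6 (RefSeq), hold 1 copy of GAANNTTC, in capitals, 104 to 97 bases before the start.
Hspa1a: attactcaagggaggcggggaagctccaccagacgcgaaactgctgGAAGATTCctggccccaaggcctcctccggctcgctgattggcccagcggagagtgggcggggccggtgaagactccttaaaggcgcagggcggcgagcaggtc
GAANNTTC reads the same on both strands. In the 250 bases before a start site it occurred in 7.73% of the 27025 genes of the RefSeq promoter table and in 10 of the 50 members with an entry, 20.0%. By time, it was in 2 of the 11 members highest at day 0 (Hspa1a and Dnaja4), 4 of 20 higher at day 1 (Cct2, Dnajc27, Hspd1 and Hspe1), 0 of 2 lower at day 1 and 4 of 17 with no call (Dnaja1, Dnajb6, Hspb1 and Hspb6). It was thus found in members of opposite time course. A match is a run of letters, not a measured binding site.

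Of the J proteins, Dnajb1, Dnajb4 and Dnaja4 fell as Hspa1a did, while others of the family rose and are given below. Dnajb1, the main J protein partner of stress-inducible HSP70, was 12.51 and 12.67 at day 0 (WT first), between 11.80 and 12.12 at 3 hr and between 11.12 and 11.47 at day 1. The 3 stages did not overlap, and the fall to day 1 Th0 was -1.32 (SE 0.106; limma adjusted p = 2.53e-08). Dnajb4, a close relative, was 8.28 and 8.51 at day 0, 7.12 to 7.27 at 3 hr and 6.45 to 6.78 at day 1, a fall of -1.70 (SE 0.0969) to day 1 Th0. Dnaja4, a J protein of the other cytosolic class, fell from 7.77 and 7.82 to between 7.30 and 7.43 at 3 hr and between 6.49 and 7.12 at day 1, a difference of -0.997 (SE 0.0988) at day 1 Th0. Its highest day 1 array was the Erk2-deficient iTreg one.

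Dnajb9, an ER-resident J protein induced by the unfolded protein response, gave the next largest fall after Hspa1a. Its levels were 12.58 and 12.66 at day 0, 10.69 (WT) and 10.36 in 3 hr Th0, 10.73 (WT) and 10.14 in 3 hr iTreg, and 8.27 to 8.75 at day 1. The stages were far apart, and the fall to day 1 Th0 was 17.0-fold, -4.09 (SE 0.166; limma adjusted p = 1.7e-11). Bag3, the BAG protein that couples HSP70 to small heat shock proteins and to autophagy, was 11.37 in WT and 11.10 in Erk2-deficient cells at day 0. It was 9.92 and 9.52 in 3 hr Th0, 9.88 and 9.42 in 3 hr iTreg, and 8.42 to 8.66 at day 1, 6.82-fold lower at day 1 Th0 than at day 0 (-2.77, SE 0.135; limma adjusted p = 1.17e-10). Bag3 was the only one of the 6 BAG members in this pattern.

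Dnajc6, the auxilin that uncoats clathrin vesicles with HSP70, went from 8.0 and 7.82 at day 0 to 7.23 to 7.51 at 3 hr. At day 1 it was 6.17 to 6.41 and above background on 5 of 10 arrays, with a difference of -1.67 (SE 0.111) at day 1 Th0; differences this near to background are understated. Hspa2, an HSP70 best known from spermatogenesis, had a different course by genotype at 3 hr and is given with the genotype comparison. Dnajc7, Hspbap1 and Dnajb12 fell by less at 3 hr. Hspbap1 went from 9.003 and 8.76 to between 8.32 and 8.49 at 3 hr (-0.49, SE 0.0822) and was back at 8.49 to 8.95 at day 1, higher than at 3 hr in iTreg culture (0.55, SE 0.0949) and not called against day 0. Dnajb12 likewise fell at 3 hr (-0.28, SE 0.0789) and rose again by day 1 Th0 (0.24, SE 0.0911). Dnajc7 went from 11.16 and 11.15 to between 10.77 and 11.05. Of the 3 members lower at day 1 but not highest at day 0, Dnajc5, a J protein of synaptic and secretory vesicles, went from 11.02 and 10.91 to between 11.03 and 11.15 at 3 hr and between 10.13 and 10.35 at day 1 (-0.69 in Th0, SE 0.0923). The other two were Dnajb2, described with the 3 hr peak, and Dnajc4.

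**Figure D2:**
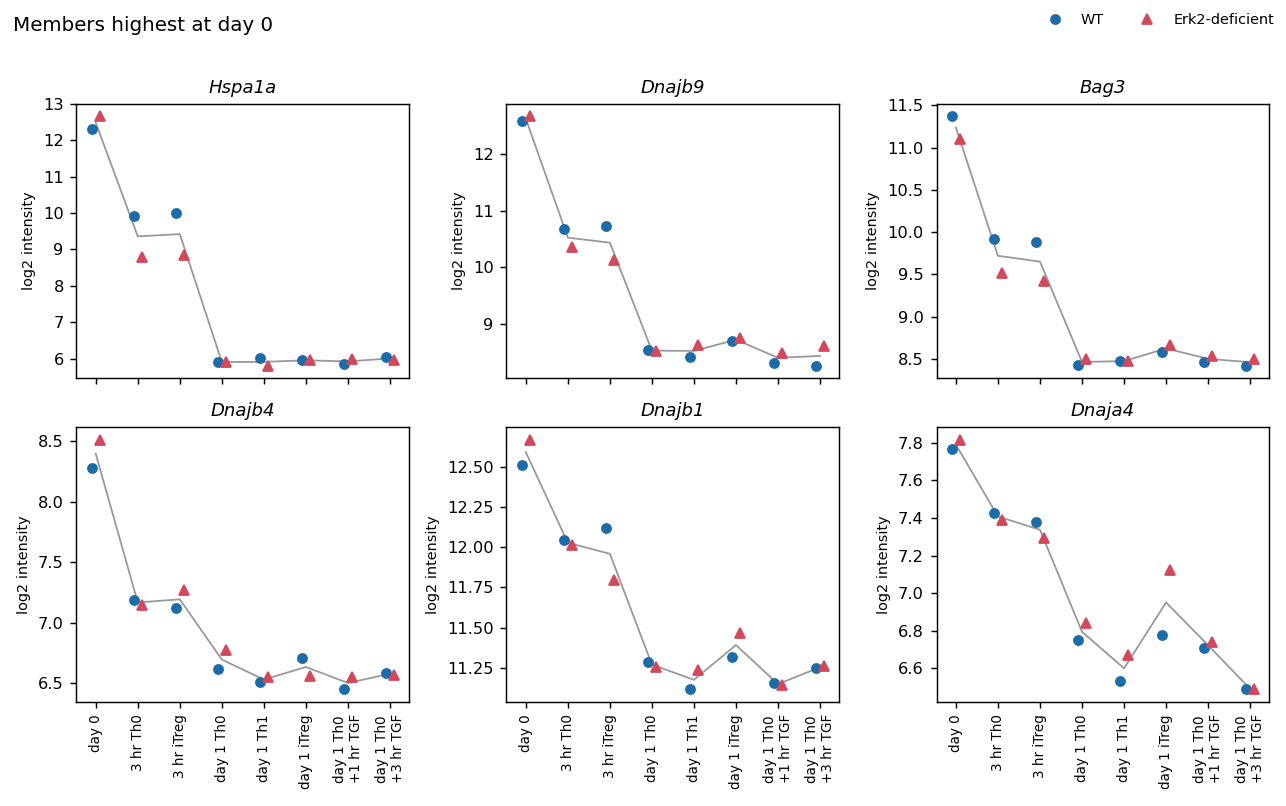
Log2 intensity (vertical axis, its own range in each panel) of 6 genes highest at day 0 in the 8 conditions (horizontal axis); blue circles are WT, red triangles Erk2-deficient, 1 array each, and the grey line joins the condition means. In each of the 6 panels both day 0 arrays lie above all later arrays; the Hspa1a triangles lie below the circles at 3 hr, near 8.8 against 10.

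The genes whose course over 16 arrays was most like the mean of these 11 members were Zfand2a (Pearson r = 0.9961), Rsad2 (0.9955), Dedd2 (0.9943) and Ppp1r15a (0.9931). These correlations are descriptions; all arrays share the time course. Zfand2a encodes an arsenite-inducible proteasome-associated protein, and Ppp1r15a the phosphatase subunit that reverses translation block in stress. Immediate early genes, which are often raised by handling during cell isolation, moved along: 11 of 12 measured were lower at day 1 Th0 than at day 0 and 1 higher, with a median of -2.32. Fos, a subunit of the AP-1 factor, fell by 6.18 on the log2 scale, Fosb fell by 5.64 and Dusp1, a phosphatase of the kinase cascade, fell by 4.63. Atf3 was higher, by 0.67. At 3 hr, 7 of the 12 were already lower, with a summed intensity of 73160 to 75170 at day 0, 25590 to 39220 at 3 hr and 4155 to 8086 at day 1. Their part in the chaperone values was not tested. Myeloid markers also fell, all 7 measured by day 1 Th0, with a summed intensity of 2928 to 3997 at day 0, 1595 to 3199 at 3 hr and 602.8 to 1015 at day 1. Of other lists, 2 of 5 CD8 and NK markers, 1 of 2 red cell markers and 3 of 8 B cell genes were lower at day 1 Th0. Of the B cell genes 1 was higher, and 4 of 5 T cell markers were lower, beside 29.5% of all probes lower. The part of such cells in the day 0 chaperone levels was not tested.

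In 14 members both 3 hr condition means were above all others, a grouping made after the values were seen and so given with no test. Of the 14, 11 rose from day 0 to 3 hr, beside 24.6% of all probes, a share the grouping itself favours, and Hspa8, Dnajc16 and Dnajc5 were not called. Hspa4l, an HSP110 exchange factor, was 6.55 and 6.46 at day 0, 8.08 (WT) and 8.11 in 3 hr Th0, 8.21 and 7.97 in 3 hr iTreg, and 6.35 to 6.81 at day 1. It rose 3.01-fold by 3 hr (1.59, SE 0.0857; limma adjusted p = 8.63e-10) and fell again by day 1, by -1.57 in Th0 (SE 0.0989) and -1.58 in iTreg culture. Day 0 and day 1 Th0 differed by 0.02 (SE 0.0989), so a comparison of those stages alone would miss it. Dnajb2, a J protein best known from neurons that binds ubiquitinated clients, went from 7.82 and 7.74 to between 8.46 and 8.69, then to between 7.05 and 7.40, below its start. Dnajc12, a J protein that assists aromatic amino acid hydroxylases, rose by 0.96 (SE 0.0766) and fell by -0.93 (SE 0.0884) in Th0 culture. Dnajc27 (0.99, SE 0.0755), Dnajc30 (0.71, SE 0.073) and Bag5 (0.67, SE 0.0786) also rose by 3 hr.

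Hsph1, the inducible HSP110 that exchanges nucleotide on HSP70, was 11.21 and 11.33 at day 0. At 3 hr it was 12.09 and 11.98 in the WT cultures and 11.47 and 11.38 in the Erk2-deficient ones, and at day 1 10.50 to 11.21. The rise at 3 hr over both genotypes was 0.46 (SE 0.133; limma adjusted p = 0.00882), carried mostly by the WT arrays, and the later fall in Th0 was -0.85 (SE 0.153). Hspb1, the small heat shock protein HSP27, was near background throughout: 6.36 and 6.29 at day 0, 7.06 and 6.62 in 3 hr Th0, 6.80 and 6.51 in 3 hr iTreg, and 6.03 to 6.34 at day 1. All 4 of its 3 hr arrays were above background, against 1 of 2 at day 0 and 2 of 10 at day 1. The other small heat shock protein kept, Hspb6, did the reverse, from 8.24 and 8.16 to between 7.44 and 7.61 at 3 hr (-0.64, SE 0.0852) and 8.06 to 8.62 at day 1.

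The Hspb1 promoter is shown for contrast with Hspa1a, since it holds 2 copies of the same letters while the gene peaked later. They lie 117 to 110 and 97 to 90 bases before the start site in chr5:135887769-135887918, plus strand, GRCm38.p6 (RefSeq).
Hspb1: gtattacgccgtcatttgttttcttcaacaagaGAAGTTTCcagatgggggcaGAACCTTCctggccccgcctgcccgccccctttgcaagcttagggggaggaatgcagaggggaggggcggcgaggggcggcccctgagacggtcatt

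Of a list of 8 cytosolic heat-inducible members, drawn up from background knowledge with earlier results of these data known (Hspa1a, Dnajb1, Dnajb4, Dnaja4, Bag3, Hsph1, Hspb1 and Hspa4l), 5 fell and 3 rose by 3 hr, and all 8 fell from 3 hr to day 1 in both Th0 and iTreg culture (medians -0.82 and -0.59, against 27.5% and 26.5% of all probes lower). The list does not hold Hsp90aa1, also a heat-inducible gene, which rose from 3 hr to day 1 Th0 (0.83, SE 0.135). Of the heat shock factors themselves, only Hsf2 was kept. It was lower at 3 hr (-0.21, SE 0.0792; limma adjusted p = 0.0388) and higher at day 1 Th0 (0.47). Hsf1 had no probe in the annotation.

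The chaperonins rose together between day 0 and day 1 Th0. All 9 measured, the 7 CCT subunits with Hspd1 and Hspe1, were higher at day 1 Th0 than at day 0, with a median of 1.10 and a range of 0.61 to 1.46, beside 30.5% of all probes higher. At 3 hr 8 of the 9 were already higher, with a median of 0.44, beside 24.6% of all probes. From 3 hr to day 1, 8 of 9 rose in Th0 but 5 of 9 in iTreg culture, with medians of 0.70 and 0.32. The shares of all probes higher there were 26.4% and 25.3%. Cct6a was 11.51 and 11.52 at day 0, 12.08 to 12.26 at 3 hr and 12.78 to 13.04 at day 1, a rise of 1.41 (SE 0.0878; limma adjusted p = 1.54e-09) with no overlap between stages. Cct7 rose by 1.42 (SE 0.11), from 7.08 and 7.37 to between 8.18 and 8.87 at day 1. Cct3 (1.10, SE 0.11), Cct5 (1.05, SE 0.0985) and Cct8 (0.88, SE 0.0931) followed, and Cct2 (0.62, SE 0.11) and Cct4 (0.61, SE 0.0911) rose least. Tcp1, the remaining subunit of the same ring, rose by 0.98, and 4 of 6 measured genes of Tcp1 and prefoldin, which hands actin and tubulin to CCT, were higher, Pfdn4 by 1.63, and 0 lower.

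Mitochondrial chaperones rose alongside. Hspd1, the chaperonin of the matrix, was 12.31 and 12.44 at day 0, 13.04 and 12.89 in 3 hr Th0, 13.18 and 12.85 in 3 hr iTreg, and 13.52 to 13.88 at day 1. The rise to day 1 Th0 was 2.76-fold (1.46, SE 0.114; limma adjusted p = 1.75e-08). On a second probe, above background on all 16 arrays, Hspd1 rose by 2.30 (limma adjusted p = 2.2e-08), so the size of its rise depends on the probe. Its lid Hspe1 was 10.74 in WT and 11.17 in Erk2-deficient cells at day 0, the widest day 0 pair among the members, 11.01 to 11.44 at 3 hr and 11.91 to 12.41 at day 1. It rose by 1.17 (SE 0.143). Its 3 hr Th0 array labelled Erk2-deficient lay between the 2 day 0 arrays. Hspa9, the matrix HSP70 that pulls imported proteins inward, rose from 12.54 and 12.47 to between 13.19 and 13.69 at day 1 (1.00, SE 0.096). Of 8 mitochondrial members 6 rose, with a median of 0.81, and 0 fell, beside 30.5% of all probes higher; 1 of the 6, Dnajc19, had probes that disagreed, as given below. Among partners, Grpel1, the exchange factor of Hspa9, rose by 0.97 and the protease subunit Clpp by 1.36, 3 of 6 in all with 0 lower.

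Hspd1 and Hspe1 are neighbours that point away from each other on chromosome 1. RefSeq places starts of Hspd1 at 55087932 and 55088243 on the minus strand and that of Hspe1 at 55088148 on the plus strand. Between 55087932 and 55088148 lies a run of alternating GAA and TTC units, in chr1:55088053-55088082 (plus strand, GRCm38.p6), shown because both genes rose and it lies before a start of each. It is 89 to 72 bases before the Hspe1 start and 144 to 127 before the first Hspd1 start.
Hspe1: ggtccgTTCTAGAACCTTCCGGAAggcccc
The capitals mark the units. At least 3 alternating units (GAANNTTCNNGAA or TTCNNGAANNTTC, both strands, each overlapping GAANNTTC) occurred in 0.514% of the 27025 genes and in 3 of 50 members, Hspd1, Hspe1 and Dnajb6. The pair that carries this run was lowest at day 0, when Hspa1a was highest.

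**Figure D3:**
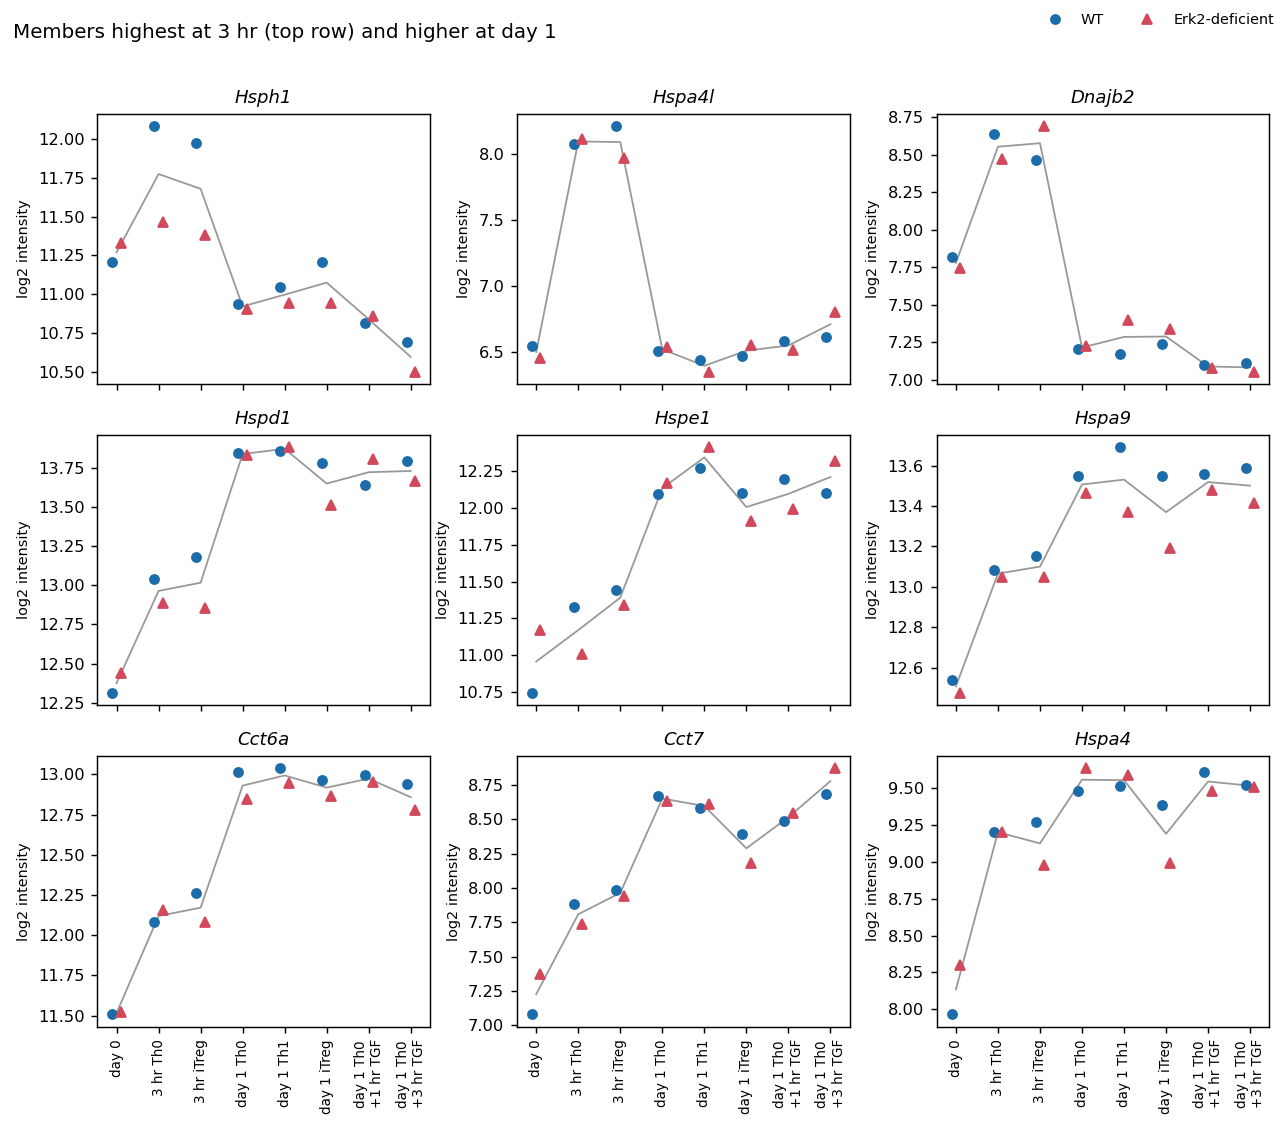
Log2 intensity (vertical axis, its own range in each panel) of 3 genes highest at 3 hr (top row) and 6 higher at day 1 (lower rows) in the 8 conditions; blue circles are WT, red triangles Erk2-deficient, 1 array each, and the grey line joins the condition means. Hspa4l returns to its day 0 level near 6.5 by day 1, while Hspd1 rises from 12.3 and 12.4 at day 0 to at least 13.5 at day 1; Hsph1 shows the genotypes apart at 3 hr.

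Both HSP90 genes, Hspa4 and some BAG genes were also among the members higher at day 1. Hsp90aa1, the cytosolic HSP90 that holds kinases and steroid receptors, was 9.15 and 9.28 at day 0, 9.27 to 9.57 at 3 hr and 9.33 to 10.24 at day 1. Its rise was 0.89 in day 1 Th0 (SE 0.135; limma adjusted p = 2.69e-05), whereas day 1 iTreg differed from 3 hr iTreg by 0.01 (SE 0.135), and its lowest day 1 array was the Erk2-deficient iTreg one. Hspa4, an HSP110 exchange factor, rose by 1.03 (SE 0.118) at 3 hr and 1.42 (SE 0.136) at day 1 Th0, from 7.97 and 8.30 to 9.48 and 9.64. Dnajc2, the ribosome-bound J protein that meets nascent chains, rose from 9.99 and 9.96 to 11.23 and 11.20 (1.24, SE 0.102). Bag1, Bag2, Bag4 and Bag5 were higher at day 1 Th0, Bag2 by 0.71 (SE 0.112) and Bag4 by 0.63 (SE 0.103), while Bag3 fell and Bag6 (-0.07, SE 0.0881) was not called. Of 15 other co-chaperones of HSP70 and HSP90, 9 rose and 4 fell at day 1 Th0, beside 30.5% and 29.5% of all probes. The share that fell was thus near that of all probes. Ppid rose by 1.37, the p23 gene Ptges3 by 1.32 and the adaptor Stip1 by 0.99, while Unc45a fell by 1.12 and Fkbp5 fell by 0.35.

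Hspa8, the constitutive HSP70, ran from 14.55 to 14.79 on the 16 arrays. It differed by 0.11 (SE 0.0777) at 3 hr and 0.04 (SE 0.0898) at day 1 Th0, without a call. Its raw intensity, 23067 to 29149, ranked 8 to 32 from the top of each array, where quantile normalization leaves little room. With cyclic loess in its place the differences were -0.39 and -0.88 and were called, so the direction of Hspa8 depends on the normalization. Its second kept probe, above background on all 16 arrays, gave -0.26 at 3 hr and 0.30 at day 1 Th0, without a call. From 3 hr to day 1 that probe rose by 0.41 in Th0 and 0.91 in iTreg culture (limma adjusted p = 0.0181 and 3.35e-05). The brightest probe gave -0.06 and -0.03 there, so the course of Hspa8 also depends on the probe.

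In the endoplasmic reticulum the members went separate ways. Of 6 (Hspa5, Hsp90b1, Hspa13, Dnajb9, Dnajc3 and Dnajc10), 2 rose and 1 fell at day 1 Th0, beside 30.5% and 29.5% of all probes. Hsp90b1, the HSP90 of the ER, rose from 11.75 and 11.97 to between 12.17 and 12.62 at day 1 (0.74 in Th0, SE 0.103; limma adjusted p = 1.27e-05), and Dnajc10, a J protein with reductase activity, rose by 0.28 (SE 0.105) on its brightest probe. The second Dnajc10 probe, above background on 7 arrays, gave 0.07 (limma adjusted p = 0.529), so this call rests on 1 of its 2 probes. Hspa5, the HSP70 of the ER known as BiP, was 9.15 and 9.40 at day 0 and 8.74 to 9.16 at day 1, with a difference of -0.23 (SE 0.101; limma adjusted p = 0.0605) in Th0; it fell between 3 hr and day 1 in iTreg culture (-0.56, SE 0.101). Dnajb9 fell as described above. Among 14 other genes of ER folding and the unfolded protein response, 10 rose and 3 fell at day 1 Th0, against the same 30.5% and 29.5%: Creld2 rose by 1.16 and the lectin chaperone Calr by 1.03, while the stress factor Ddit3 fell by 2.56, Atf4 fell by 0.87 and Herpud1, a part of ER-associated degradation, fell by 1.60.

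Hspa5 and Hsp90b1 share a promoter motif although only Hsp90b1 was called between day 0 and day 1 Th0, and their sequences are shown for that reason. The ER stress element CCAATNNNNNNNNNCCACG, on either strand, was in 0.13% of the 27025 genes and in 3 of 50 members, all in the ER list (Hspa5, Hsp90b1 and Dnajc3; 3 of 5 with an entry); the Dnajb9 promoter did not match. The windows are chr2:34771940-34772089 on the plus and chr10:86705445-86705594 on the minus strand of GRCm38.p6 (RefSeq), with the element in capitals, 65 to 47 and 107 to 89 bases before the start; Hsp90b1 has another copy at 212 to 194.
Hspa5: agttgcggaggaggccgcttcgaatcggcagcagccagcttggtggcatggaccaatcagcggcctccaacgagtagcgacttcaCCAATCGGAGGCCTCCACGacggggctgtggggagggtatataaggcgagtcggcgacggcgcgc
Hsp90b1: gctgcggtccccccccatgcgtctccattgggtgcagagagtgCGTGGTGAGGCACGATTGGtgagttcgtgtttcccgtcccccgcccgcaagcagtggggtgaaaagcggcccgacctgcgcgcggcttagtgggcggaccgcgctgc

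By family, the day 1 Th0 calls were 9 higher and 0 lower of 9 chaperonins, 2 and 0 of 2 HSP90 genes, and 4 and 1 of 6 BAG genes. The HSP70 family with HSP110 had 2 higher and 2 lower of 10, a smaller share than the 60% of all probes called, 30.5% higher and 29.5% lower. Class B J proteins had 0 higher and 4 lower of 8, class A 1 and 1 of 4, and the diverse class C 7 and 4 of 19. The 2 small heat shock proteins had no call in this comparison.

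**Figure D4:**
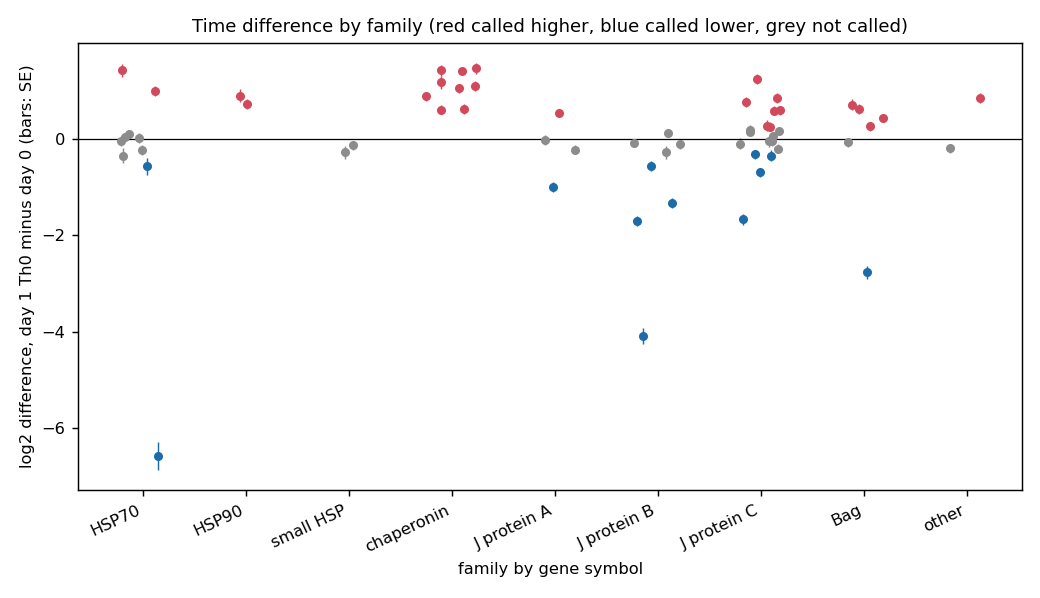
Difference between day 1 Th0 and day 0 (vertical axis, log2) for each of the 62 members, by family (horizontal axis); bars are SE, red points called higher, blue called lower and grey not called. All 9 chaperonins lie above 0.6, and the lowest points are Hspa1a at -6.58, drawn from day 1 arrays below background so that only the bound of at least 72.9-fold is measured, Dnajb9 at -4.09 and Bag3 at -2.77.

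Some members had more than 1 kept probe, and these did not always give the same call. Of 16 further kept probes of 15 members, 7 gave a call in the same direction at 3 hr against day 0, and 1 was called in the opposite one: Dnajc19, a subunit of the mitochondrial import motor, was 0.29 on its brightest probe, -0.34 on another and 0.03 on the third. At day 1 Th0 these were 0.85, -0.14 and 0.25, the first and the last called higher. Between day 0 and day 1 Th0, 7 further probes were called in the same direction and 1, of Dnajc19, had the opposite sign without a call. Another 3, of Dnajb4, Dnajc10 and Hspa2, had the same sign without a call. Of the 11 further probes of members called between 3 hr and day 1 Th0, 5 were called in the same direction and 6 had the same sign without a call. Some further probes were called where the brightest was not. Among these were Hspa8 from 3 hr to day 1, as given above, and Dnajb6 at 3 hr. The second Dnajb6 probe gave 0.50 (limma adjusted p = 0.000122) against -0.16 on the brightest. For genotype at 3 hr, Hspa2 and Hspd1 gave a call on 1 of their 2 probes, described with that comparison. The 26 members higher at day 1 were most like Cops4 (Pearson r = 0.993), Prelid3b (0.9919), Rcc1 (0.9919) and Mpp6 (0.989) over the 16 arrays, as a description.

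Fewer members were called between cultures than between times. At 3 hr, 0 of 62 differed between iTreg and Th0 culture (limma), as did 0% of all probes. An unadjusted p under 0.05 was met by 2 members and by 527 of all 14501 probes. At day 1, 0 of 62 differed between Th1 and Th0 (0.11% of all probes), and also 0 at an unadjusted p under 0.05, beside 773 of all probes. Between 3 and 1 hr of TGF in day 1 Th0 cells, 0 of 62 were called (0.186% of all probes). An unadjusted p under 0.05 was met by 5 members and by 1235 of all 14501 probes. Hspb6 (0.38, limma adjusted p = 0.196) and Dnajc27 (-0.30, limma adjusted p = 0.271) had the lowest of the members. Day 1 Th0 lay on another chip than Th1 and iTreg, where culture and chip cannot be told apart, so iTreg was set against Th1 on the same chip: 2 members were higher and 2 lower, beside 8.54% of all probes, 4.77% higher and 3.78% lower. Dnajc15, a J protein of the mitochondrial inner membrane, was 11.09 and 11.01 in iTreg against 11.79 and 11.62 in Th1 culture, WT first. Its difference was -0.66 (SE 0.0963; limma adjusted p = 0.000391), and both iTreg arrays lay below the other 8 day 1 arrays, the lowest of which was 11.48. At 3 hr it had been 10.95 and 10.87 in Th0 and 10.97 and 11.04 in iTreg culture, and day 1 iTreg differed from 3 hr iTreg by 0.04 (SE 0.0963), against a rise of 0.82 (SE 0.0963) in Th0 culture. Cct5 was also lower in iTreg, at 9.16 and 9.15 against 9.64 and 9.57 (-0.45, SE 0.0985; limma adjusted p = 0.00857). Dnaja4 (0.35, SE 0.0988; limma adjusted p = 0.0385) and Dnajc12 (0.30, SE 0.0884; limma adjusted p = 0.0446) were higher by smaller amounts. In the same comparison 15 of the 62 had an unadjusted p under 0.05, beside 3169 of all 14501 probes. Of the 26 members higher at day 1, 24 had a negative difference, with a median of -0.19, as did all 9 chaperonins, with a median of -0.22. Calls were made for 2 and 1 of these. Over the whole array 7920 of 14501 probes had a negative difference. The share among all probes higher at day 1 Th0 was not computed. In the iTreg pair, 74.9% of those probes were lower in the Erk2-deficient array, as given below. The count of calls moved with single arrays: without the Erk2-deficient iTreg array 1 member was called, without the WT iTreg array 10, and without the WT or the Erk2-deficient Th1 array 1 and 2. Dnajc15 was called in each of these.

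Several stress-induced members were lower in Erk2-deficient than in WT cells at 3 hr. Of the 62, 6 members were lower and 1 higher over the 2 pairs of 3 hr cultures, 11.3% in all beside 3.45% of all probes, 2.22% lower and 1.23% higher (limma, 5 residual degrees of freedom). Hspa1a differed by -1.14 in the Th0 and -1.15 in the iTreg pair, or -1.14 together (SE 0.0929; limma adjusted p = 1.8e-06), 2.21-fold. At day 0 the pair, as labelled, differed by 0.34 the other way, and at day 1 the gene was below background in both genotypes. Hsph1 differed by -0.62 in the Th0 and -0.59 in the iTreg pair (-0.61, SE 0.093; limma adjusted p = 0.000891), with 0.12 at day 0. Hspa2 was 7.92 (WT) and 8.09 at day 0, 8.27 and 7.66 in 3 hr Th0, and 8.38 and 7.54 in 3 hr iTreg culture. On this probe it was above both day 0 arrays in WT and below both in Erk2-deficient cells at 3 hr (-0.73, SE 0.0972; limma adjusted p = 0.000269). A second Hspa2 probe, above background on all 16 arrays, gave -0.16 (limma adjusted p = 0.502), so the call rests on 1 of its 2 probes. The same holds for its fall from day 0 to day 1 Th0, -0.57 on the first probe and -0.095 on the second, without a call.

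Dnajb9 (-0.46, SE 0.102; limma adjusted p = 0.0179), Bag3 (-0.43, SE 0.083; limma adjusted p = 0.00713) and Hspb1 (-0.37, SE 0.0954; limma adjusted p = 0.0449) were lower in both 3 hr pairs. In the day 0 pair, whose labels are in doubt, Bag3 differed by -0.26 as labelled. Dnaja1, a cytosolic J protein of HSP70, was the exception, higher by 0.26 and 0.43 in the Erk2-deficient 3 hr arrays (0.34, SE 0.0878; limma adjusted p = 0.0403). Its levels were near background, from 6.39 to 6.93 over all arrays, and 1 of its 2 probes was kept. By time, 4 of the 11 members highest at day 0 and 0 of the 26 higher at day 1 were called, beside 3.45% of all probes. The 0 of 26 is near that share. Of the 22 members with no call between day 0 and day 1, 3 were called. An unadjusted p under 0.05 was met by 3 of those 26 and by 2364 of all 14501 probes. Hspa2, 1 of the 4, was placed by means over both genotypes, 8.01 at day 0 against 7.96 in both 3 hr cultures. Its low Erk2-deficient 3 hr arrays helped to place it, so this count is not independent of genotype. The list of 8 cytosolic heat-inducible members was made with earlier results known and holds neither Dnaja1 nor Hsp90aa1. Of these 8, 4 were lower, beside 2.22% of all probes. Dnajb1, by contrast, differed by -0.03 in Th0 and -0.32 in iTreg culture without a call, so the heat-inducible genes did not move evenly. The chaperonins had 0 of 9 called on their brightest probes, with a median of -0.07 and 1 with an unadjusted p under 0.05. The second Hspd1 probe, above background on all 16 arrays, was called lower (-0.66, limma adjusted p = 0.00589), against -0.24 on the brightest, so this count depends on the choice of probe.

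These calls rest on 2 pairs. Without the 3 hr iTreg pair 1 of the 7 remained, Hspa1a, and without the 3 hr Th0 pair 4 did, Hspa1a, Hspa2, Hsph1 and Dnajb9. With chip as the only block 0 were called, in a fit that leaves the difference between conditions in the residual. On both chips WT arrays held the odd and Erk2-deficient arrays the even positions, and an effect of position cannot be told apart from one of genotype. Other genes moved at 3 hr with the same sign: of the immediate early list Atf3 (-1.18) and Jund (-0.45) were lower, as were 3 of 7 myeloid markers, with Lyz1 at -1.42, both red cell markers (Hba-a1 at -3.44) and 3 of 8 B cell list genes, which were the antigen presentation genes H2-Aa, H2-Ab1 and Cd74. The T cell markers went the other way: all 5 were higher in the Erk2-deficient 3 hr arrays, with a median of 0.21, and 1 was called. The CD8 and NK markers had 0 of 5 called, and 0 with an unadjusted p under 0.05. The part of these cells in the chaperone differences was not tested.

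**Figure D5:**
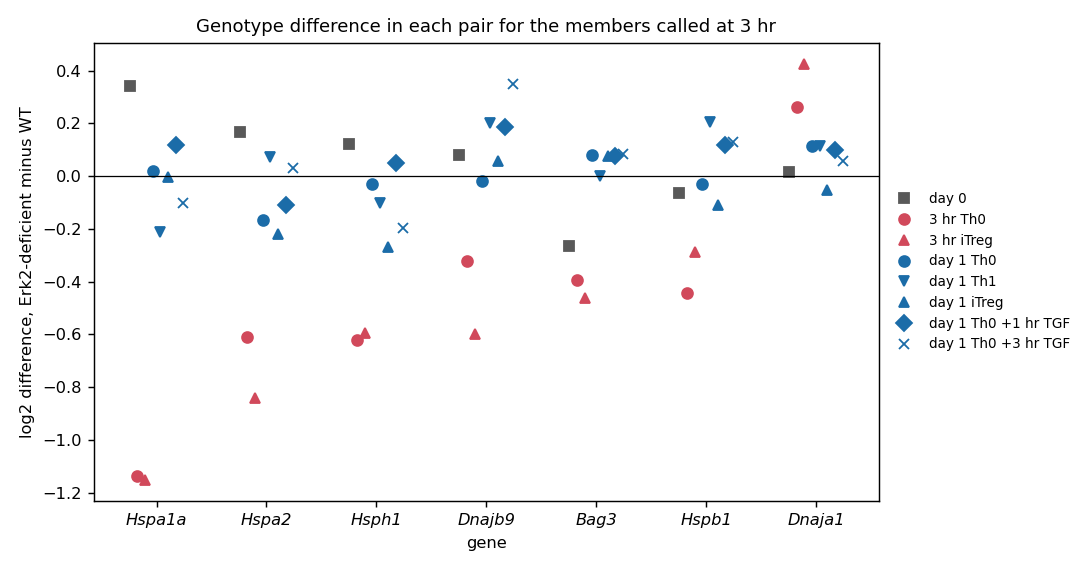
Erk2-deficient minus WT difference (vertical axis, log2) in each of the 8 pairs for the 7 members called at 3 hr (horizontal axis); 1 point is 1 pair of arrays, grey for day 0, red for 3 hr and blue for day 1. Both red points of Hspa1a lie near -1.14, and for the 6 members lower at 3 hr both red points lie below every blue point.

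At day 1 the genotypes differed in 1 member, beside 6.37% of all probes, 3.49% higher and 2.88% lower. Hspbap1, which binds the small heat shock protein Hspb1, was lower in Erk2-deficient cells in all 5 pairs, with differences from -0.39 to -0.06 (-0.21, SE 0.0579; limma adjusted p = 0.0447). Hspa9 (-0.20, SE 0.0596; limma adjusted p = 0.0558) and Dnaja3, a mitochondrial J protein (-0.18, SE 0.0539; limma adjusted p = 0.0648), did not pass. The difference between the genotype effects at day 1 and 3 hr was itself called for 5 members, all of them higher, beside 1.23% of all probes, 0.986% higher and 0.248% lower: Hspa1a (1.11), Hspa2 (0.65), Dnajb9 (0.61), Hsph1 (0.50) and Bag3 (0.49). For Hspa1a the day 1 side has no measured level.

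In the day 1 iTreg pair the Erk2-deficient array was lower for 25 of the 26 members higher at day 1, 96.2%, with a median of -0.19. Dnajc2 (-0.40), Hspa4 (-0.39), Bag2 (-0.37) and Hspa9 (-0.35) were farthest apart, and Dnajc19 was 0.01. In the other 4 day 1 pairs 46.2% to 73.1% of the 26 were lower. The same holds for the array as a whole: of all 4422 probes higher at day 1 Th0, 74.9% were lower in this Erk2-deficient array, with a median of -0.14. Against the other day 1 pairs, 0 of 62 members differed by limma, beside 4.97% of all probes called. An unadjusted p under 0.05 was met by 10 members and by 2497 of all 14501 probes. This is 1 pair, and the array stood apart from the rest of day 1.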

How the data were processed

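RNA from 16 samples of mouse CD4 T cells was extracted with Trizol, treated with DNase and hybridised as biotinylated cRNA to Illumina arrays, per the labels' protocols. The deposited intensity values are 1 scanner signal per probe and array; the scanner software with its background step is not given in the sources used here. A second deposited table holds the authors' normalized intensity values and served as an alternative. Probes took gene symbols from the platform annotation: 23978 of 25697 had 1 symbol, 0 several and 1719 none.

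Background was corrected by normexp with an offset of 50, followed by quantile normalization and log2, in limma 3.58.1 under R 4.3.3. A probe counted as above background past the 99th percentile of a normal curve centred on the mode of log2 raw intensity; 14501 probes that did so on at least 2 arrays were kept. Time and culture comparisons used a fit of condition and genotype, and genotype comparisons a fit of condition and genotype by stage. P-values were adjusted by Benjamini-Hochberg over all 14501 probes at 0.05. With 1 array a group, replicates are the arrays of a condition or the pairs of a stage, and their number limits how precise a value can be. Each fit was tested on simulated data. Members, partner lists and time patterns were chosen with earlier results of these data known. Named members are up to 8 with the largest change each way among those called in each comparison, members of known role, the widest day 0 pairs and up to 6 genes of each partner list; Dnajb6, Hspa13 and others in counts of 5 or fewer were named after their values were seen. Promoter sequences are from RefSeq (GRCm38.p6), and 50 of 62 members had an entry. Alternatives were background correction, normalization, filter, probe choice, array weights, variance prior, genotype term, chip block, the authors' values, exchanged day 0 labels and leaving out arrays or pairs.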

Additional observations from a re-analysis of the deposited data

Results flagged for a closer look

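The difference between genotypes, Erk2-deficient minus WT, changed between the 3 hr and the day 1 cultures for 5 members, by a test of that change itself (limma, Benjamini-Hochberg over all probes, 2 pairs at 3 hr and 5 at day 1). For Hspa1a the day 1 minus 3 hr value was 1.11 (SE 0.11; limma adjusted p = 0.000163), with the day 1 side below background. For Hspa2 it was 0.65 (SE 0.115; limma adjusted p = 0.00755) on its brightest probe and 0.25 (limma adjusted p = 0.469) on its second, for Dnajb9 0.61 (SE 0.12; limma adjusted p = 0.0151), for Hsph1 0.50 (SE 0.11; limma adjusted p = 0.0322) and for Bag3 0.49 (SE 0.0982; limma adjusted p = 0.017). In each of the 5 the Erk2-deficient arrays were lower in both 3 hr pairs. Lyz1, a myeloid marker, and Hba-a1, a red cell marker, were also lower in both 3 hr pairs, while the 5 T cell markers were higher. By the same test of the change, 4 of 7 myeloid and 2 of 2 red cell markers were called higher and 0 lower, beside 0.986% of all probes higher. The median change of the myeloid markers was 0.61. Of the B cell list 1 of 8 and of the CD8 and NK list 1 of 5 were called higher, and 1 of 5 T cell markers lower. The part of the cells behind these markers in the 5 values was not tested.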

How the results depend on the processing

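The counts of called members in the time comparisons stayed within 1.5 times under every alternative run, with leave-out ranges of 30 to 41 (3 hr against day 0), 39 to 49 and 31 to 40 (day 1 against 3 hr in Th0 and iTreg) and 33 to 38 (day 1 Th0 against day 0). For individual calls, 26 of 40, 34 of 47, 26 of 39 and 31 of 38 were kept in every alternative, in the order 3 hr against day 0, day 1 against 3 hr in Th0 and in iTreg, and day 1 Th0 against day 0. Culture and genotype counts depended on the processing. For day 1 iTreg against Th1 (4), array weights and no genotype term gave 2, median scaling 11, and leaving out an array 1 to 10; Dnajc15 was kept throughout. For 3 against 1 hr of TGF (0), array weights gave 1. For genotype at 3 hr (7), median scaling gave 4, chip as the only block 0 and leaving out a pair 1 to 4; a chip block alone leaves condition in the residual. For genotype at day 1 (1), array weights gave 4, chip as the only block, median scaling, no background correction, normexp offset 16 and the authors' series matrix 0, and leaving out a pair 0 to 2. For the change of the genotype difference from 3 hr to day 1 (5), chip as the only block gave 0, median scaling 2, normexp offset 16 gave 1 and leaving out a pair 1 to 7. For the day 1 iTreg pair against the other pairs (0), median scaling gave 2 and the series matrix 1. Turned in direction were Hspa8 under cyclic loess, at -0.39 (3 hr) and -0.88 (day 1 Th0), and Dnajc19 at 3 hr on the mean of its probes, at -0.00414; for Hspa8 the cause was not tested. Signals near background, as for Hspb1, Dnaja1 and Dnajc6, understate differences.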
